A study of Mus musculus with 7 samples.

Results

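The genes described here encode factors that recognise or build silent chromatin: the 3 HP1 proteins (Cbx1, Cbx3, Cbx5), the corepressor KAP1 (Trim28), the partners Atrx and Daxx, the HUSH subunits Mphosph8 and Tasor, and the chromatin remodelling or structural factors Hells and Smchd1. They were a list of 10 symbols, looked up in the annotation of the array, and each was read from its brightest probe set that carried 1 gene symbol. This gave values for 9 of the 10, among 22180 genes in all. The probe set of Mphosph8 was annotated to 2 genes, so Mphosph8 was not analysed here.

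RNA was measured on 7 single-colour Affymetrix arrays of C2C12, an established mouse myoblast line, 1 array per sample. Cells had received an siRNA against G9a (siG9a, 3 arrays), an siRNA against GLP (siGLP, 2 arrays) or a control siRNA (control, 2 arrays). All 3 groups were grown in 15% serum, and each 100 mm dish received 0.2 µmol of siRNA. No knockout allele, drug or time series was part of the design, and the labels give neither a time after transfection nor the siRNA sequences. G9a and GLP, encoded by Ehmt2 and Ehmt1, are paired methyltransferases of lysine 9 on histone H3, and the comparisons ask whether transcripts of proteins that read or act on that mark differ when either enzyme is depleted. Separate cultures are not stated in the labels. The p-values therefore measure the spread between these arrays alone, which may be technical.

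HP1 proteins bind methylated lysine 9 of histone H3 through a chromodomain and recruit further silencing proteins through a chromoshadow domain. KAP1 is brought to DNA by KRAB zinc finger proteins and in turn recruits HP1 and the methyltransferase SETDB1, while HUSH adds silencing at transposable elements and transcribed insertions. ATRX and DAXX deposit the histone variant H3.3 in heterochromatin, HELLS is a remodeller needed for DNA methylation of repeats, and SMCHD1 keeps the inactive X chromosome and some imprinted and clustered genes silent.

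Values are RMA log2 signals, so a difference of 1 is a doubling, and the 9 genes were well above the dim end of the array. Their lowest value on any array was 7.03, against an upper quartile of all probe sets between 6.85 and 6.90. In siG9a, Ehmt2 stood at 6.31, 6.14 and 5.99, against 7.56 and 7.46 in control, and it passed the test (log2 difference -1.37; limma, Benjamini-Hochberg adjusted p = 0.0308). Without single arrays its difference stayed between -1.45 and -1.29, with limma adjusted p between 0.0787 and 0.426, and each such fit also has fewer residual degrees of freedom. It also did not pass without moderation, with only the 2 groups in the fit or with a replicate block (limma adjusted p up to 0.172). In siGLP, Ehmt1 stood at 5.73 and 6.13, against 6.71 and 6.73 in control, and it did not pass (log2 difference -0.79; limma adjusted p = 0.197). The 8 myoblast markers, among them Des, Vim and Myod1, averaged 8.79 to 8.86 per array in siG9a, 8.89 and 8.94 in siGLP, and 9.02 and 9.06 in control. Of the 8, 5 lay below control in siG9a and 6 in siGLP, against 48% and 49.2% of all genes. At an unadjusted limma p under 0.05, 4 and 2 were lower and 0 higher (4.57% and 4.13% of all genes were lower), and 0 passed. Myod1 stood at -0.68 in siG9a and -0.0025 in siGLP, and Cdh15 at -0.51 in both. The 8 myotube markers averaged 4.92, 4.91 and 4.86 in siG9a and 4.84 and 4.76 in siGLP, against 4.88 and 4.998 in control. In each knockdown 4 of them lay above and 4 below control. The lowest p was that of Mymk, at -0.29 in siG9a and -0.71 in siGLP (limma adjusted p = 0.184 and 0.133). The 7 markers of leukocytes or endothelium averaged 4.34 to 4.55 over the 7 arrays. Even so, 1 leukocyte marker, the lysosomal gene Cd68, averaged 7.76 in siG9a, 7.68 in siGLP and 7.14 in control. In a culture, fewer cells of a kind and less RNA per cell cannot be told apart.

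No factor reached a Benjamini-Hochberg adjusted p below 0.05, the threshold used, in any comparison. Over all genes, 0.0271% passed in siG9a against control, 0.00451% in siGLP against control and 0.234% in siGLP against siG9a. Sizes were small. The 9 log2 differences ran between -0.20 and 0.02 in siG9a, between -0.33 and 0.14 in siGLP, and between -0.35 and 0.34 for siGLP minus siG9a. The 95% intervals of the fit, which are not adjusted for the number of genes, kept every factor between 75.4% and 116.0% of the control level in siG9a and between 67.8% and 128.3% in siGLP. The factors with the widest separation were Daxx and Tasor, which had their lowest group mean in siGLP, and Hells, which was lowest in siG9a and highest in siGLP.

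**Figure D1:**
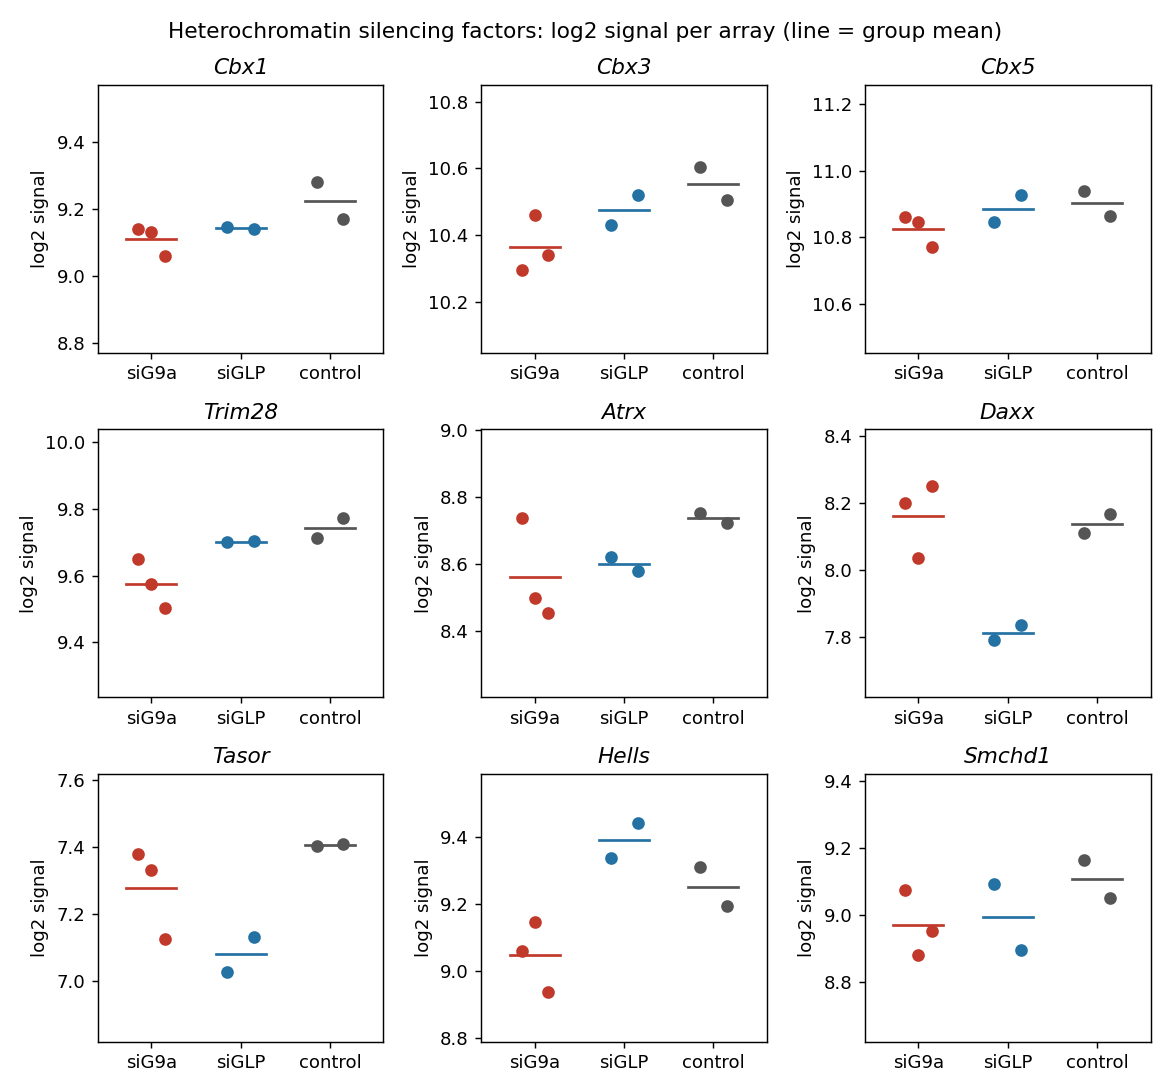
Log2 signal (y axis, each panel spanning the same number of log2 units) of the 9 measured factors on every array, by group (x axis), with a line at each group mean. Daxx lay at 7.79 and 7.84 in siGLP, apart from the other 5 arrays, and Hells lay lowest in siG9a and highest in siGLP.

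**Figure D2:**
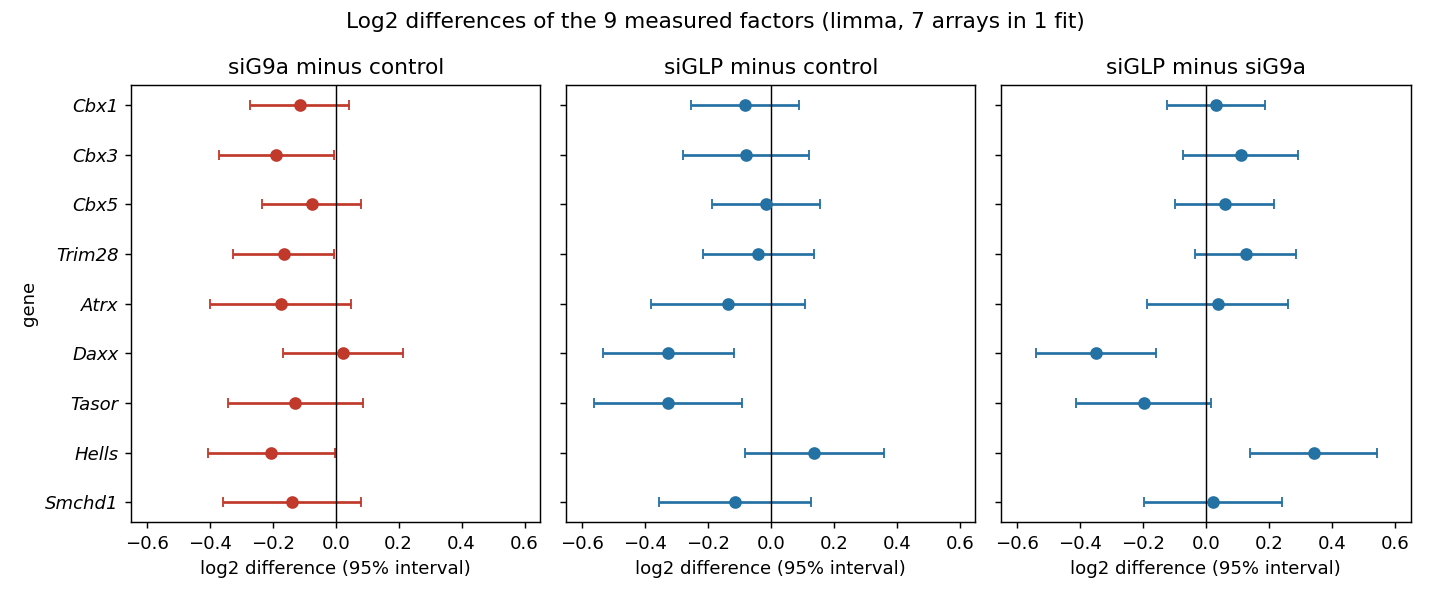
Log2 differences (x axis) of the 9 factors (y axis) in the 3 comparisons, with 95% intervals from the limma fit, not adjusted over genes. In siG9a the intervals of Cbx3, Trim28 and Hells ended just below 0, and in siGLP those of Daxx and Tasor lay below 0.

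Promoter windows are shown for Hells and Cbx3, the factors whose windows hold an E2F-type octamer, for Cdca7, whose product activates HELLS, and for Daxx and Tasor, the factors with the largest differences in siGLP. E2F factors control genes of DNA replication, and the letters searched on both strands were TTTCCCGC, TTTGGCGC, TTTCGCGC and TTTGCCGC, with matches in capitals. Each window runs 5′ to 3′ on the gene's strand, from 250 bases before to 50 bases after a start site, from RefSeq on GRCm38.p6. The windows are chr19:38930740-38931039 on the plus strand for Hells, chr6:51470366-51470665 (plus) for the first of 2 starts of Cbx3, chr2:72475969-72476268 (plus) for Cdca7, chr17:33909195-33909494 (plus) for the first of 3 starts of Daxx, and chr14:27428584-27428883 (plus) for Tasor.
Hells: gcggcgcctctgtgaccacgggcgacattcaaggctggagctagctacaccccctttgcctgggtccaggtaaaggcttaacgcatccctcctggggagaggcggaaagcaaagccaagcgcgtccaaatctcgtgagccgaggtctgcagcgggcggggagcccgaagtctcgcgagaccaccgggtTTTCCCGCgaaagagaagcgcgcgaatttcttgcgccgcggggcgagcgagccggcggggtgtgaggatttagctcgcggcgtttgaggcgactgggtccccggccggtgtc
Cbx3: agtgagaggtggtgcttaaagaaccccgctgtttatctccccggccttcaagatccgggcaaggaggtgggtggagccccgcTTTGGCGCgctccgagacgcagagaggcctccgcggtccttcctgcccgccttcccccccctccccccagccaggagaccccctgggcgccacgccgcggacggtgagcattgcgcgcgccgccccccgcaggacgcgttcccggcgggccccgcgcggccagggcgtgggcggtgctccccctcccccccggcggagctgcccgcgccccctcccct
Cdca7: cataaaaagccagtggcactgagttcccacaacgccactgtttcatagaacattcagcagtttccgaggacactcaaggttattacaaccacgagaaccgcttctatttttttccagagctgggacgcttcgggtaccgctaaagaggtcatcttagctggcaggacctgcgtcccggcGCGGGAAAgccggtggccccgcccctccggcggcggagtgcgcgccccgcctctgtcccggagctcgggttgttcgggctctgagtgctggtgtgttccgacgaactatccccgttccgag
Daxx: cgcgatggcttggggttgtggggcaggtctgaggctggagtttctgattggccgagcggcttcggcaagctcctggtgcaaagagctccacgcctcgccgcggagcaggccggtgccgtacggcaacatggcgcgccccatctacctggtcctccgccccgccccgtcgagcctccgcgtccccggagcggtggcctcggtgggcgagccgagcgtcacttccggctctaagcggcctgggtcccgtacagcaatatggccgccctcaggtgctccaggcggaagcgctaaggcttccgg
Tasor: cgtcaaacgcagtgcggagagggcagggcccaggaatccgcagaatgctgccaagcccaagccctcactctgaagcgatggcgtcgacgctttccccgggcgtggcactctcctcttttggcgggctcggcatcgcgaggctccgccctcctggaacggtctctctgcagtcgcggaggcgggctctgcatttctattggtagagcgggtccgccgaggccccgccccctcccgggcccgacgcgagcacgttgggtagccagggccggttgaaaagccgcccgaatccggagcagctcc
The octamer began 62 bases before the start site in Hells, 71 before it in Cdca7 and 168 before it in Cbx3. It occurred in 2 of the 14 windows of the 10 listed genes (14.3%), in 8 of 20 windows of the S phase genes described further on (40.0%), and in 2.27% of all 32851 windows. The windows of Daxx and Tasor did not hold these letters. A match describes the sequence and is not evidence of binding. The windows of the listed genes were rich in CpG, with a median of 32.0 CpG dinucleotides against 7.0 over all windows.

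The HP1 genes came first among the readers of the mark. Cbx1, which encodes HP1 beta, stood at 9.14, 9.13 and 9.06 in siG9a and at 9.14 on both siGLP arrays, against 9.28 and 9.17 in control. All 5 knockdown arrays lay below both control arrays, and the group means differed by about as much as the 2 control arrays did. The log2 difference was -0.11 in siG9a (SE 0.066; limma adjusted p = 0.606) and -0.08 in siGLP (SE 0.072; limma adjusted p = 0.818). Cbx5, which encodes HP1 alpha, was the steadiest of the 3 in siGLP. Its signal was 10.86, 10.85 and 10.77 in siG9a and 10.85 and 10.93 in siGLP, against 10.94 and 10.86 in control, so that the siGLP arrays overlapped the control values. The differences were -0.08 in siG9a (SE 0.066) and -0.02 in siGLP (SE 0.072), with limma adjusted p of 0.732 and 0.977.

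Cbx3, which encodes HP1 gamma, a form also found over transcribed genes, had the largest HP1 difference in siG9a. It stood at 10.30, 10.46 and 10.34 in siG9a and at 10.43 and 10.52 in siGLP, against 10.60 and 10.51 in control. On this probe set the siG9a arrays all lay below control, and the siGLP arrays overlapped control. The log2 difference was -0.19 in siG9a, 87.8% of the control level (SE 0.077; unadjusted p = 0.0447; limma adjusted p = 0.461), and -0.08 in siGLP (SE 0.084; limma adjusted p = 0.858). Cbx3 was the only factor with several probe sets of 1 symbol, 4 in all. The other 3, an alternative added after seeing the data, gave -0.21, -0.18 and -0.16 in siG9a and -0.14, -0.08 and -0.10 in siGLP, and none passed (limma adjusted p of at least 0.413). Their unadjusted limma p in siG9a was 0.0321, 0.0441 and 0.158. On the last of them the siG9a arrays met control (9.48, 9.44 and 9.29 against 9.68 and 9.44). The counts of factors given further on use the brightest probe set. Probe sets of 1 gene share their RNA and are not replicates, and near-identical copies of Cbx3 elsewhere in the genome were not tested as a source of signal.

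**Figure D3:**
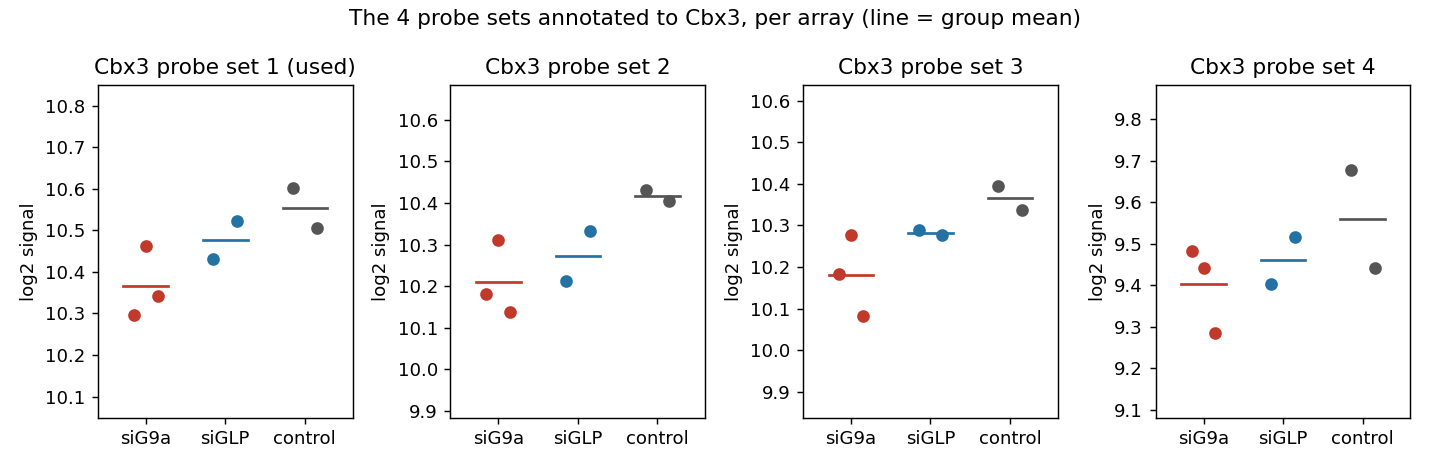
Log2 signal (y axis) of each of the 4 probe sets annotated to Cbx3 alone on every array, by group (x axis), with lines at group means. All 4 had their lowest group mean in siG9a, and no difference passed the test.

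Trim28, the gene of KAP1, showed a difference of similar size in siG9a. Its signal was 9.65, 9.57 and 9.50 in siG9a and 9.70 on both siGLP arrays, against 9.71 and 9.77 in control. The 3 siG9a arrays lay below every other array, and the siGLP arrays lay just below the lower control array. The difference in siG9a was -0.17, 89.2% of control (SE 0.068; unadjusted p = 0.0459; limma adjusted p = 0.465), and in siGLP it was -0.04 (SE 0.075; limma adjusted p = 0.928). The direct comparison of siGLP with siG9a gave 0.13 (SE 0.068; limma adjusted p = 0.512).

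The partners that deposit H3.3, Daxx and Atrx, were not tested against each other. Daxx, the histone chaperone of the pair, stood at 7.79 and 7.84 in siGLP and at 8.20, 8.04 and 8.25 in siG9a, against 8.11 and 8.17 in control. Both siGLP arrays lay below all 5 others, while siG9a spanned the control values. In siGLP the log2 difference was -0.32, 79.8% of control (SE 0.088; unadjusted p = 0.00798; limma adjusted p = 0.37). In siG9a it was 0.02 (SE 0.080; limma adjusted p = 0.945), with an interval of -0.17 to 0.21. The test of siGLP against siG9a gave -0.35, or 78.5% of the siG9a level (SE 0.080; unadjusted p = 0.00354), the smallest p of the 9 factors in that comparison, and it did not pass either (limma adjusted p = 0.153).

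Atrx, the remodeller of the pair, stood at 8.73, 8.50 and 8.45 in siG9a and at 8.62 and 8.58 in siGLP, against 8.75 and 8.72 in control. One siG9a array was at the control level and the other 2 were lower, and both siGLP arrays lay below control. The differences were -0.17 in siG9a (SE 0.094; limma adjusted p = 0.582) and -0.14 in siGLP (SE 0.10; limma adjusted p = 0.781).

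Tasor, which encodes the scaffold of HUSH, stood at 7.03 and 7.13 in siGLP and at 7.38, 7.33 and 7.12 in siG9a, against 7.40 and 7.41 in control. All 5 knockdown arrays lay below control, and the third siG9a array was as low as siGLP. In siGLP the log2 difference was -0.33, 79.8% of control (SE 0.099; unadjusted p = 0.0136; limma adjusted p = 0.418). In siG9a it was -0.13 (SE 0.090; limma adjusted p = 0.668). The difference between the knockdowns was -0.20 (siGLP minus siG9a; SE 0.090; limma adjusted p = 0.445), and the 2 groups overlapped.

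Hells, the remodeller that cooperates with DNA methylation, was the 1 factor whose arrays lay wholly on opposite sides of control in the 2 knockdowns. It stood at 9.06, 9.15 and 8.94 in siG9a and at 9.34 and 9.44 in siGLP, against 9.31 and 9.19 in control. No siG9a array reached control and no siGLP array fell to it, although the lower siGLP array was close to the higher control array. The difference was -0.20 in siG9a (86.8% of control, SE 0.085; unadjusted p = 0.0478; limma adjusted p = 0.469) and 0.14 in siGLP (110.1% of control, SE 0.093; limma adjusted p = 0.758). Set directly against each other, siGLP minus siG9a was 0.34, a 1.27-fold difference (SE 0.085; unadjusted p = 0.00518; limma adjusted p = 0.178). This arrangement, siG9a below and siGLP above both control arrays, was found in 236 of 22180 genes (1.06%). It was not particular to Hells among the genes described further on. The S phase genes Mcm2, Mcm4, Mcm6 and Cdt1 and the chaperone gene Asf1a had it too. Of the myoblast markers, Itga7 had it as well.

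Smchd1, whose product is an unusual member of the SMC family, gave overlapping groups throughout. It stood at 9.08, 8.88 and 8.95 in siG9a and at 9.09 and 8.90 in siGLP, against 9.16 and 9.05 in control. The differences were -0.14 in siG9a (SE 0.093; limma adjusted p = 0.65) and -0.11 in siGLP (SE 0.10; limma adjusted p = 0.821).

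Counted together, 8 of the 9 factors lay below control in siG9a and 8 of 9 in siGLP, with Daxx the exception in siG9a and Hells in siGLP. Over all genes 48% lay below control in siG9a and 49.2% in siGLP, and of the 5896 genes at least as bright as Tasor, the dimmest of the 9, 47.6% and 53.6%. The medians of the 9 log2 differences were -0.14 and -0.08, against 0.01 and 0.00 over all genes. The 2 comparisons share the control arrays, so a control array that is high for several factors moves both, and control 1 was above control 2 for 6 of the 9. An unadjusted p under 0.05 with lower signal was reached by 3 of 9 factors in siG9a (Cbx3, Trim28 and Hells), against 4.57% of all genes (5.95% were higher at that level) and 8.11% of those bright genes. In siGLP it was reached by 2 of 9 (Daxx and Tasor), against 4.13% of all genes (4.51% higher) and 6.46% of the bright ones. In siGLP against siG9a, Hells was higher and Daxx lower at that level, where 5.87% of all genes and 8.87% of the bright ones were higher, and 6.57% and 12.2% lower. The siG9a count was 2 without siG9a array 1 (Trim28 and Atrx), 2 without array 2 (Cbx3 and Hells) and 0 without array 3. It was 2 after centring on the median (Cbx3 and Hells), and 1 without moderation and after quantile normalization (Trim28 in both). It was 0 with only the 2 groups in the fit and with a replicate block. It also fell in fits without a control or siGLP array. In siGLP, Tasor was not at that level in all of those fits. Without single arrays the log2 difference of Cbx3 ran from -0.24 to -0.14, Trim28 from -0.20 to -0.13 and Hells from -0.26 to -0.15. In siGLP Daxx ran from -0.35 to -0.30 and Tasor from -0.38 to -0.27, and for siGLP minus siG9a Daxx ran from -0.41 to -0.30 and Hells from 0.29 to 0.39. Leaving out a control or siGLP array leaves 1 in that group, which is assumed to vary like the other groups. The siGLP median was -0.14 without control 2 and -0.06 without control 1, where 7 of the 9 factors lay below control. Arrays lay wholly below control for 6 factors in siG9a (11.7% of all genes; 20.7% of the bright ones) and for 5 in siGLP (16.9% and 25%), and wholly above it for Hells alone in siGLP (17.4% of all genes; 20.3% of the bright ones). The members were listed with results of these data known, so these shares are descriptions without a test.

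Each factor's pattern over the 7 arrays was also set beside the 11089 other genes at or above the median level. The highest Pearson r belonged to Htatsf1 for Cbx1 (0.99), Otud7b for Cbx3 (0.99), Dusp11 for Cbx5 (0.99), Sppl2b for Trim28 (0.97), Meis2 for Atrx (0.98), Col4a1 for Daxx (0.98), Irs1 for Tasor (0.98), Dctn5 for Hells (0.99) and Asap2 for Smchd1 (0.99). These are the highest of many values over 7 arrays in 3 groups, none of the 9 was another factor of the list, and they are given as a description.

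Genes that work with HELLS were examined next. Cdca7, whose product recruits and activates HELLS on nucleosomes, had the largest difference among the related genes in siG9a. It stood at 7.54, 7.59 and 7.45 in siG9a and at 8.013 and 8.005 in siGLP, against 8.22 and 8.02 in control. The siG9a arrays lay far below the other 4. The log2 difference was -0.59 in siG9a, and it missed the threshold (SE 0.082; unadjusted p = 0.000204; limma adjusted p = 0.106). It passed with trended, robust variance moderation (limma adjusted p = 0.0314) and when genes dimmer than the median were left out (limma adjusted p = 0.0317). It did not pass in the other settings, where the limma adjusted p went up to 0.347, or without single arrays (limma adjusted p 0.158 to 0.438), where the difference was -0.69 to -0.49. In siGLP it was -0.11 (SE 0.090; limma adjusted p = 0.803). Between the knockdowns it was 0.48 (siGLP minus siG9a; SE 0.082; limma adjusted p = 0.0839). Of the 8 genes of HELLS partners and DNA methylation, 7 lay below control in siG9a and 6 in siGLP, with medians of -0.15 and -0.05, and 0 passed (with 2 and 1 at an unadjusted p under 0.05, all lower). Over all genes 48% and 49.2% lay below control, and 4.57% and 4.13% were lower at that level. Uhrf1, which guides maintenance methylation, was at -0.26 in siG9a and Cdca7l, a relative of Cdca7, at -0.20, and in siGLP the de novo methyltransferase gene Dnmt3a was at -0.37 and Zbtb24 at 0.15 (limma adjusted p between 0.342 and 0.712).

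Transcripts of DNA replication were read beside these, since HELLS and its partners act on newly replicated DNA. Of 21 S phase genes, 20 lay below control in siG9a (median -0.14) and 10 in siGLP (median 0.00), and 0 passed in either (6 and 1 at an unadjusted p under 0.05, all lower). Over all genes 48% and 49.2% lay below control, and 4.57% and 4.13% were lower at that level. For siGLP minus siG9a, 20 of the 21 were above 0, as were 10789 of all 22180 genes. In that comparison 6 of the 21 were higher and 0 lower at an unadjusted p under 0.05 (5.87% and 6.57% of all genes). The mean log2 signal of the 21 genes was 9.06, 9.04 and 9.01 in siG9a and 9.13 and 9.18 in siGLP, against 9.17 and 9.18 in control. All 3 siG9a arrays thus lay below the other 4, as for Hells, Cdca7 and Uhrf1. The genes with the smallest p were the helicase subunits Mcm2 (-0.23) and Mcm3 (-0.18) and the polymerase subunit Pola1 (-0.32) in siG9a, and the nuclease Fen1 (-0.22), Top2a (-0.18) and the licensing factor Cdt1 (0.14) in siGLP. The part of S phase transcripts in the values of Hells and its partners was not tested.

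**Figure D4:**
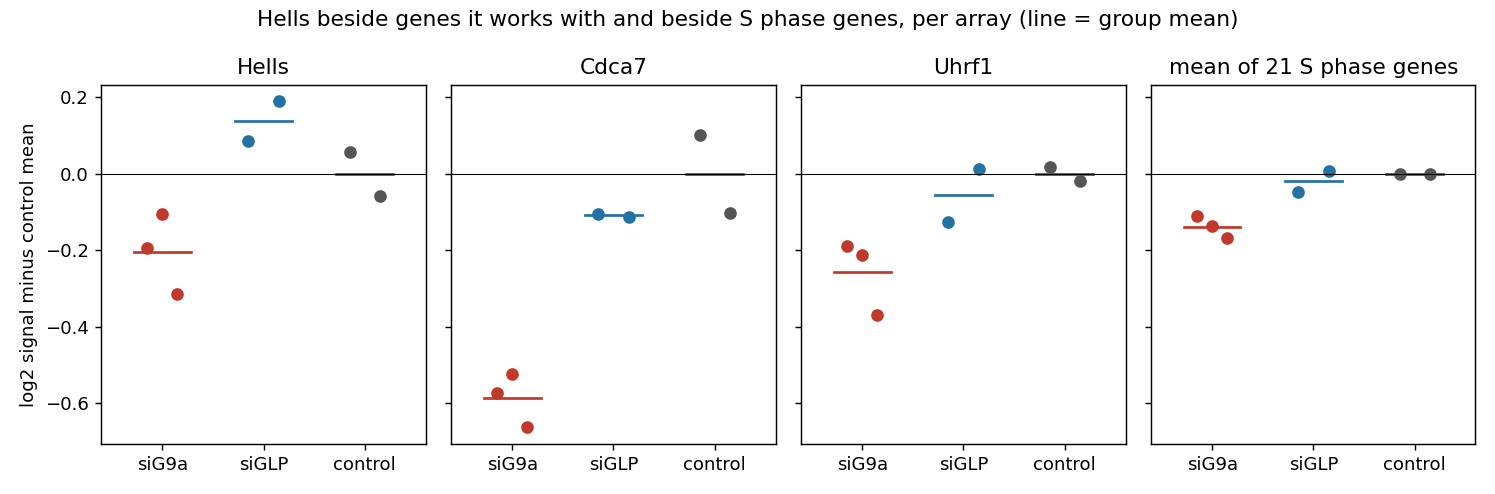
Log2 signal minus the control mean (y axis) of Hells, Cdca7, Uhrf1 and the mean of 21 S phase genes on every array, by group (x axis), with lines at group means. The siG9a arrays were the lowest in all 4 panels. Of the 4 panels, only that of Hells had both siGLP arrays above both control arrays. Taken singly, 4 of the 21 S phase genes were also so.

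Among 8 other measured genes listed under H3.3 deposition, 6 lay below control in siG9a (median -0.08) and 4 in siGLP (median 0.00). None passed, and at an unadjusted p under 0.05 there were 2 lower and 1 higher in siG9a (4.57% and 5.95% of all genes) and 1 of each in siGLP (4.13% and 4.51%). Nasp, a chaperone of histone H3, stood at -0.25 in siG9a and -0.22 in siGLP. The chaperone Asf1b stood at -0.25 in siG9a, and the HIRA complex subunit Ubn1 at 0.27. Asf1a stood at 0.20 in siGLP and Hira at -0.09 (limma adjusted p between 0.23 and 0.795 for these 5). The genes of H3.3 itself, H3f3a and H3f3b, had no probe set of their own symbol alone and were not analysed here.

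Of 17 measured genes of the SETDB1, HUSH and KRAB corepressor group, 11 lay below control in siG9a and 12 in siGLP. Over all genes 48% and 49.2% did. The medians of the 17 were -0.07 and -0.04. None of the 17 passed, and 1 per comparison was lower at an unadjusted p under 0.05 (4.57% and 4.13% of all genes). In siG9a this was Zfp57, a KRAB zinc finger gene whose product brings KAP1 to imprinted regions, which stood at 6.47, 6.49 and 6.16 in siG9a, against 7.07 and 6.68 in control (log2 difference -0.51, SE 0.14; limma adjusted p = 0.29). Its 2 control arrays were also well apart. Morc2b (0.16) and the HUSH effector Morc2a (-0.15) were next. In siGLP it was Morc3, an ATPase linked to silencing of repeats (-0.28; limma adjusted p = 0.472), followed by Chd4, an NuRD ATPase (-0.16), and Setdb1 (-0.10).

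Of 15 measured HP1 partners, 11 lay below control in siG9a and 10 in siGLP, against 48% and 49.2% of all genes. The medians of the 15 were -0.06 and -0.04. None of the 15 passed, with 0 at an unadjusted p under 0.05 in siG9a and 1 lower in siGLP (4.57% and 4.13% of all genes were lower). That gene was Chaf1b, a subunit of the replication-coupled assembly factor CAF-1, at -0.25 in siGLP and -0.17 in siG9a (limma adjusted p = 0.564 and 0.577). In siG9a the deacetylase gene Hdac2 (-0.13) had the smallest p, followed by Chaf1b and Mbd1 (0.19), and in siGLP the lamina genes Lbr (-0.16) and Lmnb1 (-0.10) followed Chaf1b.

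Genes that SMCHD1 is known to silence, the clustered beta protocadherins and imprinted genes near Snrpn, were mostly dim on these arrays. The list averaged 3.72 to 3.75 in siG9a and 3.70 and 3.71 in siGLP, against 3.83 and 3.79 in control. The lower quartile of the arrays lay close by, at 3.32 to 3.36. Of 25 measured genes, 16 lay below control in siG9a and 17 in siGLP, with medians of -0.05 and -0.08, and 0 passed (3 higher and 4 lower at an unadjusted p under 0.05 in siG9a, where 5.95% and 4.57% of all genes were, and 1 higher and 5 lower in siGLP, where 4.51% and 4.13% were). The smallest p in siG9a belonged to Pcdhb20 (-0.47), Pcdhb2 (0.32) and Pcdhb14 (0.32), and in siGLP to Pcdhb18 (-0.43), Pcdhb17 (-0.42) and Pcdhb20 (-0.34), with limma adjusted p of at least 0.152.

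**Figure D5:**
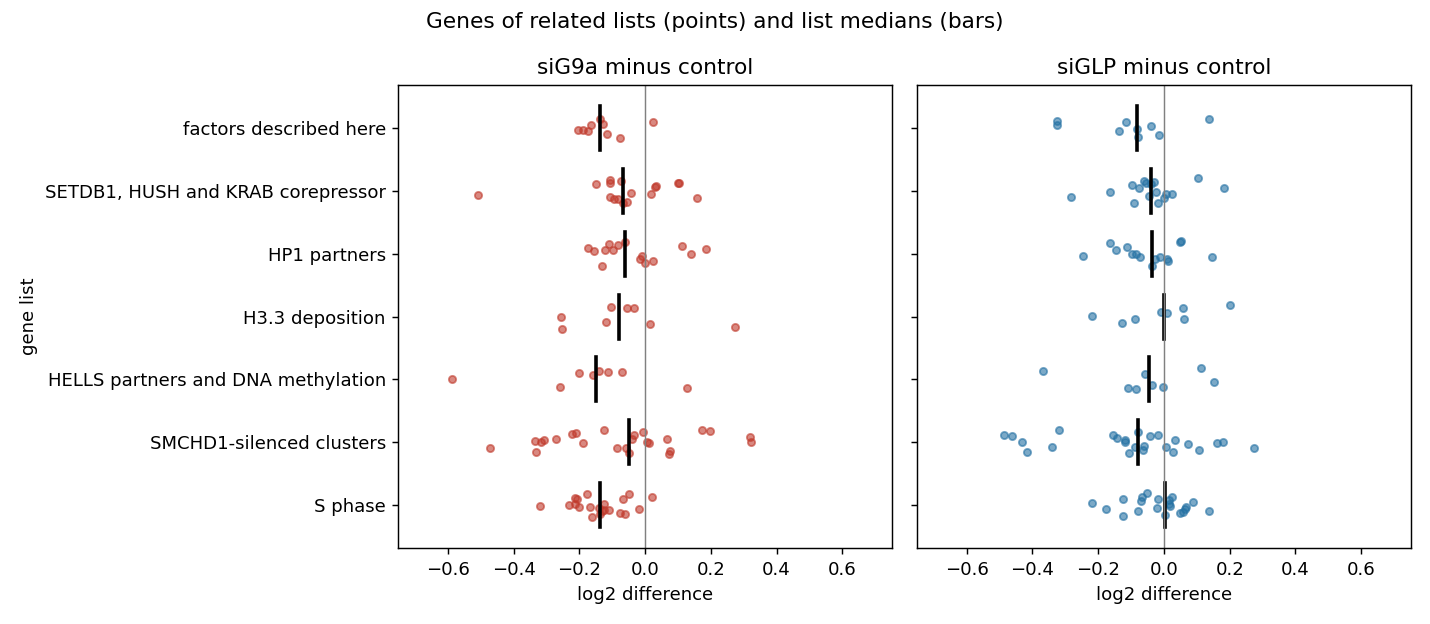
Log2 differences (x axis) of every measured gene (points) in 7 lists (y axis) for siG9a and siGLP against control, with a bar at each list's median. The medians of the 9 factors were -0.14 in siG9a and -0.08 in siGLP, and no point shown passed the test over all genes.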

How the data were processed

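Per the labels, total RNA of C2C12 cells was labelled with biotin from 100 ng and hybridised to Affymetrix whole transcript arrays. The authors deposited log2 values per probe set, made with RMA and Partek per the submitters' processing notes, which give no versions. The log2 scale was taken from the values (1.27 to 13.1). RMA normalizes quantiles between arrays, so each difference is relative to the bulk of transcripts and is compressed for dim probe sets. A scan date or batch was not found in the labels or the table, and the number of arrays limits the precision.

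Of 33649 probe sets, 23521 carried 1 gene symbol, 1814 several and 8314 none. RefSeq (GRCm38.p6) gave current symbols for 23328 of them by gene number, and the brightest probe set was kept for 1082 genes with several. Limma 3.58.1 in R 4.3.3 (lmFit and eBayes) was fitted on all 7 arrays and 22180 genes, with 1 mean per group, 4 residual degrees of freedom (6.89 with moderation), two-sided p-values and Benjamini-Hochberg adjustment over all genes. The same scripts were tested on simulated data. Promoter windows were searched for exact octamers. Related genes named in the text are the up to 3 per list with the smallest p in each knockdown, and likeness is Pearson's r. The members and lists were chosen with earlier results of these data known. Alternatives were other variance models, filters, normalizations and probe set rules, 2-group fits, a replicate block and leaving out each array.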

Additional observations from a re-analysis of the deposited data

Results flagged for a closer look

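Hells is listed because its siG9a arrays all lay below and its siGLP arrays all above both control arrays. By that rule the arrays of the 2 knockdowns cannot overlap. The siGLP minus siG9a difference was 0.34, and it did not pass over all genes (limma adjusted p = 0.178). The limma adjusted p was 0.0732 to 0.351 over the alternatives other than leaving out single arrays. The S phase genes Mcm2, Mcm4, Mcm6 and Cdt1, the chaperone gene Asf1a and the myoblast marker Itga7 were arranged alike. No explanation was tested. No group had the 4 samples needed to test for a stray array.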

How the results depend on the processing

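No factor passed under any alternative tried, with 0 of 9 in each comparison and a lowest limma adjusted p of 0.0593, for Daxx in siGLP against siG9a when genes dimmer than the median were left out. With 2 or 3 arrays per group, the SE of a factor's log2 difference was 0.066 to 0.10. Counts of all genes passed depended strongly on the setting. For siG9a against control, siGLP against control and siGLP against siG9a in that order, they were 6, 1 and 52 as reported, 100, 23 and 304 with trended, robust moderation, 0, 0 and 3 without moderation, and 148, 21 and 350 when genes dimmer than the median were left out. They were 0 in all 3 with only the groups compared in the fit. With genes below the 30th percentile left out the first and last were 30 and 171, and the first was 16 after quantile normalization and 12 after centring on the median. Without single arrays they were 0 in the first and last, and 0 to 1 in the second. Signs turned for differences near 0. Cbx5 in siGLP was 0.0034 with cyclic loess, and ran from -0.057 to 0.024 without single arrays. In the same runs Daxx in siG9a lay between -0.020 and 0.087, and for siGLP minus siG9a Atrx lay between -0.017 and 0.12 and Smchd1 between -0.074 and 0.12. For none of these reversals was the cause tested.

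The groups share replicate numbers 1 and 2. Same-numbered arrays deviated together at r = 0.0047 to 0.17, one pair under the 0.1 set as a limit, so the numbers were not taken as pairs. Arrays of other numbers ran from -0.17 to 0.15, and the only values above 0 involved siG9a array 3. In a group of 2 arrays the deviations mirror each other, so these values are not separate and cannot decide whether the numbers mark pairs. With the replicate number as a block, 0 genes passed in each comparison, 0 factors were below an unadjusted p of 0.05 in siG9a, and Daxx in siG9a turned to -0.020 and Atrx in siGLP minus siG9a to -0.017. Not every array correlated best with its own number.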
